A study of Homo sapiens with 8 samples.

Results

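The regions described here are the H3(Lys4) ChIP-Seq regions at transcription start sites (TSS) that were called in DAXX knockdown PC3 cells and had no counterpart in wild-type cells. They were chosen by measured values, namely the positions in the peak lists of both lines. A region of the knockdown (K/D) H3(Lys4) list was taken when its edge lay within 1 kb of the TSS of a protein-coding transcript of the GENCODE basic set and it shared no base with any region of the wild-type (WT) H3(Lys4) list. This rule found 3558 regions, hereafter K/D-only TSS regions, among 13536 K/D regions at TSS and 72181 K/D regions on chromosomes 1 to 22, X and Y.

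PC3 is an established human prostate cancer line grown from a bone metastasis. The K/D line carried a stable shRNA against DAXX and was kept in puromycin, whereas the WT line is labelled wild type in the sample descriptions and described as its control shRNA counterpart in the design text, so selection and vector cannot be told apart from loss of DAXX. Each line had 1 library with antibodies to DAXX, DNMT1 and H3(Lys4) and 1 input library without a peak list, 8 samples in 8 groups. There were no replicates, so no test between WT and K/D cells was possible, and a region found in 1 list only is one that did not pass the calling limits in the other, not one shown to be unmarked there. The antibody is named only as DMHH3(Lys4), and the number of methyl groups is not taken further here.

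Methylation of lysine 4 on histone H3 marks nucleosomes around active and poised promoters and, in its lower methylation states, at enhancers. The nucleosomes on either side of a start site carry the mark, and the start itself is often depleted of nucleosomes. DAXX is a histone chaperone that deposits the variant H3.3 together with ATRX, resides in PML nuclear bodies and acts as a transcriptional corepressor. DNMT1 copies DNA methylation onto newly replicated strands, and methylated CpG-rich promoters generally lack H3 Lys4 methylation.

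The sequences that follow were chosen because DAXX or DNMT1 peaks lay in K/D-only TSS regions, or because they show the kinds of start sites at which these regions were found. All were read from the GRCh37 (hg19) genome at the positions given, in windows free of annotated exons. Capitals mark matches, on either strand, to 5 motifs. The AP-1 motif was TGACTCA or its variant TGAGTCA. The GC box was searched as GGGCGGG, the motif of ETS factors as CCGGAAG, the CCAAT box by its 5 letters and the TATA box as TATAAA. The first group holds DAXX peaks with an AP-1 match, all within the K/D-only TSS regions of MAP3K14, SLC38A1 and STEAP2 and printed on the plus strand.
MAP3K14, WT DAXX peak, chr17:43396884-43397056: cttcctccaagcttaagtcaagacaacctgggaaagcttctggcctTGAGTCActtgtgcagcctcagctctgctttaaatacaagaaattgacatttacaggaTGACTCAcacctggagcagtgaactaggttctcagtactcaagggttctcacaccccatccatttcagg
SLC38A1, WT DAXX peak, chr12:46660267-46660439: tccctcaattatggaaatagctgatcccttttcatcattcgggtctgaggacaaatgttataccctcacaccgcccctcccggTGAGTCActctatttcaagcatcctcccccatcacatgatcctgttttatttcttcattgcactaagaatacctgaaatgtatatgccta
STEAP2, WT DAXX peak, chr7:89840311-89840483: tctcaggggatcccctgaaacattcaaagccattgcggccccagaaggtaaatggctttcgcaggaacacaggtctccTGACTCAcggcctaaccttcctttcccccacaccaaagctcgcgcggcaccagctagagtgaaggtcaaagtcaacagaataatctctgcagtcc
The GC content of these 3 peaks was 46.8%, 43.4% and 53.8%, in that order. The second group holds GC-rich DAXX peaks with GC boxes, in the K/D-only TSS regions of TOB1, SH3PXD2B and SNAI1, also on the plus strand.
TOB1, WT DAXX peak, chr17:48942925-48943097: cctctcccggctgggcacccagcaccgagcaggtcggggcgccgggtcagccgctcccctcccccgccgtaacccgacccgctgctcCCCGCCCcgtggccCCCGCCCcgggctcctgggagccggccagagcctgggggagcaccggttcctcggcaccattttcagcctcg
SH3PXD2B, K/D DAXX peak, chr5:171881620-171881790: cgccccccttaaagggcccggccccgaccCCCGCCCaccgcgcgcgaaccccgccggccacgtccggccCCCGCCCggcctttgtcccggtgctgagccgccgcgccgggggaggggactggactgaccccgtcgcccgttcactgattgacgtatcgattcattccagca
SNAI1, K/D DAXX peak, chr20:48598996-48599166: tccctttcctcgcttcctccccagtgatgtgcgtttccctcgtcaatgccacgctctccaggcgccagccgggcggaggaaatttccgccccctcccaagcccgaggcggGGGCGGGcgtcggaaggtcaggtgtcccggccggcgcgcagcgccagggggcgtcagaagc
Their GC content was 77.5%, 74.3% and 70.8%. The WT DNMT1 peak in the K/D-only TSS region of CYTH1 held none of the 5 motifs.
CYTH1, WT DNMT1 peak, chr17:76732040-76732168: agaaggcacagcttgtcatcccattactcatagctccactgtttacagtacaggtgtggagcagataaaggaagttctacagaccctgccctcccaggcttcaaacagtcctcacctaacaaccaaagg
The last group gives the 150 bases just before the TSS on the strand of the gene, for 3 genes of the cell division cycle and for an olfactory receptor gene. Every one of these 4 genes other than FBXO5 had no WT region within 1 kb of any of its TSS. None of these windows lies inside the K/D-only TSS region of its gene.
MCM6, before the TSS, chr2:136634014-136634163, minus strand: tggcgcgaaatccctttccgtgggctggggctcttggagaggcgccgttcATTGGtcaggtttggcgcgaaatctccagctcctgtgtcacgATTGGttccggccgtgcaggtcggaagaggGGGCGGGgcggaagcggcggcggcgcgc
E2F1, before the TSS, chr20:32274192-32274341, minus strand: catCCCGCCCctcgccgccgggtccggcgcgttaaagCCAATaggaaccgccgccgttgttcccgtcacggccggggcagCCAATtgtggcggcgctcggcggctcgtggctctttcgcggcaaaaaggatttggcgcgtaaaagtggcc
FBXO5, before the TSS, chr6:153304177-153304326, minus strand: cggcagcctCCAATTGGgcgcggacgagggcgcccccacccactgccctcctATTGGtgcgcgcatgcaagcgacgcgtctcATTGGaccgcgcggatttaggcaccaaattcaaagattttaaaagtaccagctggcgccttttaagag
OR8J3, before the TSS, chr11:55907678-55907827, minus strand: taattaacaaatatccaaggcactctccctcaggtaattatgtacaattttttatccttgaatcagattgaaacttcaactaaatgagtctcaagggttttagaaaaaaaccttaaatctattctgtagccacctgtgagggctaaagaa
The GC content was 67.3% before MCM6, 67.3% before E2F1 and 58.7% before FBXO5, against 33.3% before OR8J3. The observed to expected CpG ratio was 1.12, 1.29 and 1.09 at the first 3 and 0 at OR8J3.

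The H3(Lys4) libraries held 16248943 tags for the WT line, with 23.94% of them in called regions, and 18705056 for the K/D line, with 15.07%. The calling threshold was 12 tags in WT and 13 in K/D. Both lists had regions within 1 kb of a TSS of the epithelial genes KRT8, KRT18, EPCAM and CDH1. Neither had one at the leukocyte genes PTPRC and CD3E, at HBB, ALB, MYH6 or GFAP, or at KLK3, which marks luminal prostate cells. The share of tags in regions was lower in the K/D line, and its part in the counts below was not tested.

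The K/D-only TSS regions made up 26.3% of the 13536 K/D regions at TSS. The reverse set was larger, since 4388 of 14390 WT regions at TSS, 30.5%, shared no base with the K/D list. Away from TSS, 33853 of 58645 K/D regions had no WT counterpart, 57.7%, a larger share than at TSS. These are counts from the lists that chose the regions and are given as a description. The order of a HOMER list follows signal strength in general, although the deposited score is 1 for every peak and cannot check it. Among K/D regions at TSS, the share without a WT base was 12.4% (exact 95% interval 10.7 to 14.3) in the first decile of the list order and 49.2% (46.5 to 51.9) in the last. The same shares ran from 16.2% to 60.6% in the WT list. Width behaved in the same way, with 41.1% of the lowest width quartile of K/D regions at TSS being K/D-only and 13.7% of the highest.

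**Figure D1:**
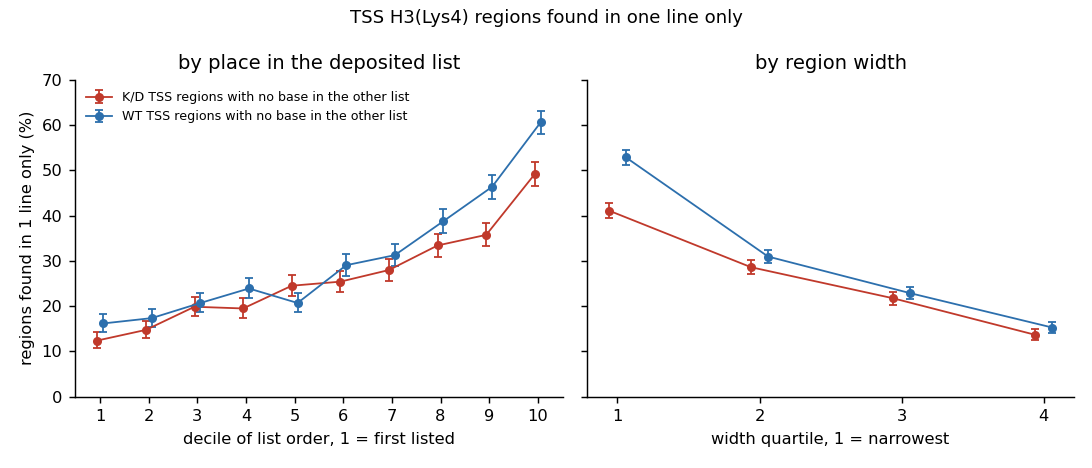
Share of TSS H3(Lys4) regions found in 1 line only (percent, vertical axis) for the K/D list (red) and the WT list (blue), by decile of list order (left) and by quartile of width (right), with exact 95% binomial intervals that cover counting error only. The share climbs toward the end of both lists, from 12.4% to 49.2% in K/D and from 16.2% to 60.6% in WT, and drops with width in both.

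K/D-only TSS regions were accordingly narrow. Their median width was 768 bp (quartiles 501 and 1217), against 1115 bp for K/D regions shared with WT and 919 bp for the WT-only TSS regions. The calling minimum of 501 bp was the width of 1154 of them, 32.4%. Nevertheless, 463 belonged to the highest width quartile of K/D regions at TSS, from 1666 bp upward. The widest was at GRK5, a kinase that phosphorylates G protein-coupled receptors, with 6411 bp.

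The rule used no distance between the start site and WT regions, so the start sites were checked next. For 2511 of the 3558 regions, 70.6% (69.0 to 72.1), none of the TSS within 1 kb had a WT region within 1 kb. For another 939 every such TSS had a WT region, and for 108 only some had. In the reverse set the share with no K/D region at the TSS was 67.6% (66.2 to 69.0). The value depends on how near a WT region has to be, as only 49.0% of the K/D-only TSS regions had none within 5 kb of their TSS. The gap to the nearest WT region had a median of 10214 bp for the 2511 regions at TSS without a WT region and of 564 bp for the other 1047. This contrast follows largely from the split itself, which holds the gaps of the 1047 to short distances. Over all of them, 509 had a WT region within 500 bp of their edge and 1863 within 5 kb. At the tight end, the GAS1 region lay 1 bp from a WT region, the BCOR region 5 bp and the TMEM59L region 6 bp. Just outside the rule, the regions of LXN and ZNF746 shared 1 and 5 bases with a WT region. The TSS limit ran between ING5, FBXO5 and SKP2, at 1000, 999 and 998 bp, and the K/D regions near LRRTM4 and DPY19L4, at 1002 and 1005 bp.

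**Figure D2:**
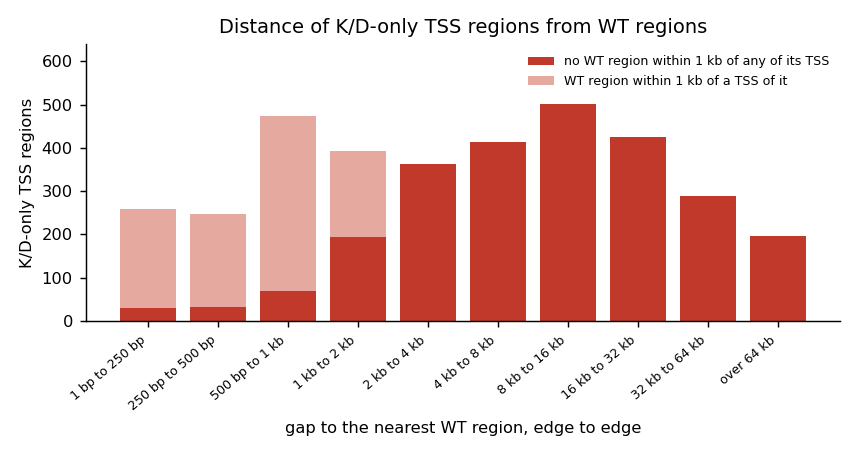
Number of K/D-only TSS regions (vertical axis) by gap to the nearest WT H3(Lys4) region, edge to edge (horizontal axis, bins that double in width above 250 bp except the last), split by whether a WT region lay within 1 kb of a TSS of the region. Regions without a WT region at the TSS (dark) peak at 8 to 16 kb with 501 regions. The others (light) all lie within 2 kb, which the split by TSS distance fixes in advance.

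The 1047 regions with a WT region at the same TSS mostly faced it across the start. For 882 of them, 84.2% (81.9 to 86.4), the centre of the K/D region and that of the WT region nearest to it fell on opposite sides of the nearest TSS. Of these, 543 had the K/D region upstream of the TSS and 339 downstream. Both regions lay on the same side for 87, and for 78 the WT region was at another of their TSS. Since the regions by definition do not overlap and both lie near 1 start, opposite sides are favoured by the rule. A further K/D region that did share bases with WT stood at the same TSS for 586 of the 1047, and for 461 the K/D line had no such region there. Centres lay downstream of the nearest TSS for 40.9% of the 1047 regions, compared with 60.2% of the 2511 without a WT region at the TSS and 65.2% of the shared K/D regions.

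Coverage dipped over the start at K/D-only genes as at genes with a region in both lines. Across the 1789 canonical TSS of genes with a K/D-only TSS region and no WT region, a K/D region covered 39.6% of TSS at 500 bp upstream, 22.5% at the start itself and 54.9% at 750 bp downstream. At 2195 canonical TSS of the reverse set, WT regions covered 50.2%, 41.6% and 60.2% at the same places. At 9022 canonical TSS of genes with a region in both lines, K/D regions covered 39.8%, 21.2% and 58.7%, and WT regions 54.0%, 36.7% and 72.7%. The coverage of the opposite list is 0 inside 1 kb by definition. Only 25.4% of the K/D-only TSS regions covered a TSS, beside 28.9% of the shared K/D regions and 36.4% of the WT-only TSS regions.

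**Figure D3:**
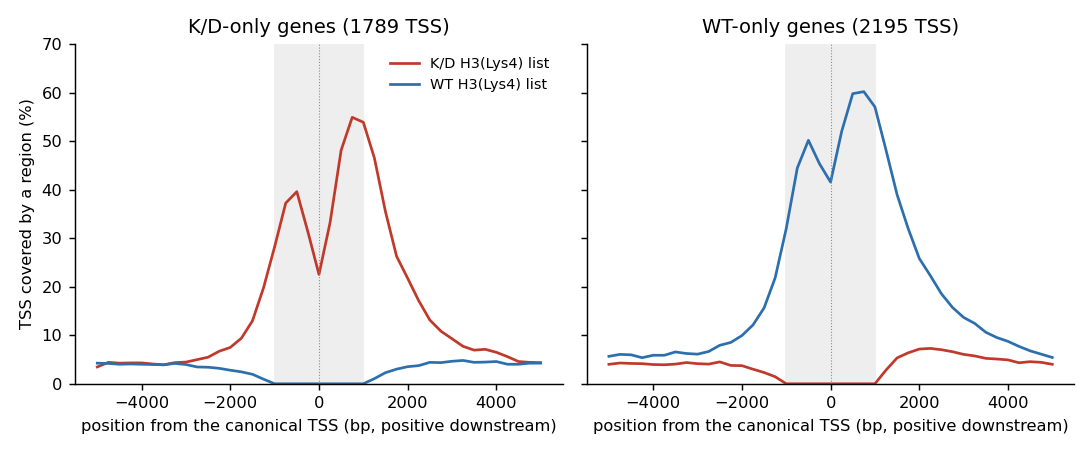
Share of canonical TSS covered by a K/D (red) or WT (blue) H3(Lys4) region (percent) against position from the TSS in bp, for K/D-only genes (left) and WT-only genes (right), with the 1 kb on either side shaded. In K/D-only genes the K/D line has 2 maxima, 39.6% at 500 bp upstream and 54.9% at 750 bp downstream, with 22.5% at the start, and the opposite list is at 0 in the shaded part because the genes were chosen so.

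The start nearest to a region was not always the main one of the gene. A canonical TSS lay within 1 kb of 2905 K/D-only TSS regions, 81.6% (80.3 to 82.9), against 88.2% (87.5 to 88.8) of shared K/D regions and 84.0% (82.9 to 85.1) of WT-only TSS regions. The remaining 653 lay at alternative starts only. RTKN2, CYTH1 and EPCAM were of this kind, with the region 28673, 44550 and 23505 bp from the canonical TSS. At all 3 genes the WT list had a region within 1 kb of the canonical TSS. For such regions a gene symbol stands for an alternative start and not for the gene as a whole.

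The first K/D-only TSS regions in list order, among those with no WT region at the TSS are given one by one. The very first was a 4579 bp region at chr10:60024045-60028623. It covered the start of IPMK, an inositol phosphate kinase, with its centre 1320 bp downstream. Its edge lay 299 bp from the start of the divergent gene CISD1, which encodes an iron-sulfur protein of the mitochondrial outer membrane. This region held a DAXX peak in both lines, and the nearest WT H3(Lys4) region was 2962 bp away and 501 bp wide. The region of EFR3A, which anchors a lipid kinase at the plasma membrane, was 4552 bp wide and held 2 WT DNMT1 peaks. TRIM47, a member of the tripartite motif family of ubiquitin ligases, had a region of 4332 bp over its start with a WT DAXX peak and 2 K/D DAXX peaks.

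YAP1, the transcriptional coactivator at the end of the Hippo pathway, had a region of 5400 bp at chr11:101983012-101988411. It covered an alternative start and lay 1834 bp from the canonical TSS, at which another K/D region was 843 bp away and the nearest WT region 23898 bp away. A WT DAXX peak lay in the YAP1 region and no K/D DAXX peak did. ABCC3, an export pump for organic anions, had a region of 3158 bp with the nearest WT region 29777 bp away. The GRK5 region at chr10:120965433-120971843 covered the canonical TSS and contained 1 DAXX peak from each line at different positions. DISP1, which releases lipid-modified Hedgehog ligands, had a region of 2355 bp with a WT DAXX peak and a gap of 29536 bp to the nearest WT H3(Lys4) region. The other regions among the first 12 were those of RTKN2, CYTH1, B4GAT1 with BRMS1, ZNF250, and CEP170 with SDCCAG8, with widths from 2555 to 4241 bp and gaps from 2030 to 45415 bp.

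Among regions with a WT region at the same TSS, the first was at RPS24, a protein of the small ribosomal subunit. It stood at place 8 of the K/D list, was 3172 bp wide and began 472 bp downstream of the TSS, and a 501 bp WT region ended 326 bp upstream. A second K/D region contained that WT region, so the upstream flank was called in both lines. MAP3K14, the kinase that activates the non-canonical NF-kB pathway, had its K/D-only TSS region upstream, at a gap of 849 bp from a WT region of 5999 bp, which shared bases with another K/D region. TOB1, an antiproliferative protein, had a K/D region of 4106 bp downstream and a WT region of 2662 bp upstream that shared no base with any K/D region. TYSND1, a peroxisomal protease, FERMT2, an integrin activator, and a region over the starts of MAN2B1 and WDR83 completed the first 6. Their gaps to WT were 494, 1513 and 704 bp. In the last case the WT region was 469 bp from the canonical TSS of WDR83OS. It was 3142 and 3077 bp from those of MAN2B1 and WDR83, which were themselves K/D-only genes. The WT regions facing the FERMT2 and MAN2B1 regions shared bases with a K/D region, and that of TYSND1 did not.

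Counted by gene, 3304 of 19785 protein-coding genes, 16.7%, had a K/D-only TSS region. Of these, 1792 genes, 9.06%, had no WT region within 1 kb of any TSS and are called K/D-only genes below. The reverse count was 2209 WT-only genes, 11.2%. Both lists reached 9038 genes, neither reached 6433, and 313 were reached in 1 line only through a region shared elsewhere with the other. Of the K/D-only genes, 871, or 48.6% (46.3 to 51.0), had a WT region in the gene body. In the reverse direction, 1141 of the 2209 WT-only genes, 51.65% (49.54 to 53.76), had a K/D region in the gene body. NPM1, the abundant nucleolar chaperone, and HNRNPU, a nuclear RNA-binding protein, were K/D-only genes and were picked out after their values were seen, as examples of genes that growing cells use constantly. The lists below were chosen with earlier results of these data known, and their shares are set beside 9.06% and 11.2%.

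Autophagy genes, which the study examined for repression by DAXX, were K/D-only in 8 of 42 cases, 19.05%, and WT-only in 3, 7.14%. With genes that had a region in at least 1 line as the base, 8 of 37 were K/D-only, 21.6%, beside 13.4% of all such genes. On that base olfactory receptor (8 of 15, 53.3%) and potassium channel genes (17 of 49, 34.7%) had higher shares. So did clustered protocadherin (4 of 12, 33.3%) and keratin genes (2 of 7, 28.6%), on few genes. WIPI1, which binds phosphoinositides on forming autophagosomes, had a region of 1018 bp located 769 bp from the canonical TSS, and the nearest WT region was 3599 bp from the region. TAX1BP1, a receptor for ubiquitinated cargo, had a region of 1417 bp with a gap of 1646 bp. ATG10, the E2-like enzyme of the ATG12 conjugation system, had a region of 2553 bp too, yet all 4 of its TSS in reach had a WT region. Of 39 lysosome and mTOR genes, 5 were K/D-only and 10 WT-only. GAA, the lysosomal glycogen hydrolase, had a region of 1416 bp and SESN3, an inhibitor of mTORC1 signalling, one of 2218 bp that held a K/D DAXX peak. TFEB, the main transcription factor of lysosomal genes, had a region of 2725 bp but was not a K/D-only gene, since another of its starts had a WT region. The gap from the SESN3 region to the nearest WT region was 74024 bp.

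Of 20 genes of DAXX, H3.3 and PML bodies, 3 had a K/D-only TSS region. One gene of the list was K/D-only, 5% (exact 95% interval 0.127 to 24.9), and 3 were WT-only. At DAXX itself, the target of the shRNA, a K/D-only TSS region of 1227 bp began 223 bp downstream of the canonical TSS, and a WT region of 938 bp began 390 bp upstream. Another K/D region shared bases with that WT region. These lists give no measure of DAXX expression. SETDB1, a histone H3 lysine 9 methyltransferase, was the K/D-only gene, with the region 369 bp from its canonical TSS. H3-3A, which encodes H3.3, had a region at an alternative start 2036 bp from the canonical TSS, where a WT region was 490 bp away. Of 30 DNA methylation and H3 Lys4 enzymes, 2 were K/D-only and 8 WT-only. TET1, which oxidises 5-methylcytosine, had a region of 1068 bp with a WT DAXX peak and a gap of 17906 bp. KDM1A and KDM5B, both H3 Lys4 demethylases, had regions of 815 and 786 bp beside a WT region at a TSS.

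Of 26 NF-kB and cytokine genes, 2 were K/D-only and 6 WT-only. The K/D-only pair was NFKBIA, the inhibitor that holds NF-kB in the cytoplasm, and IL6, a cytokine it restrains. The NFKBIA region, chr14:35874069-35875051, lay 114 bp upstream of the canonical TSS with a gap to WT of 8743 bp. The IL6 region, chr7:22766713-22767835, covered the canonical TSS, held a K/D DAXX peak and had a gap of 57838 bp. Of 35 interferon response genes, 5 were K/D-only and 6 WT-only. PSMB8 and PSMB9 encode subunits of the immunoproteasome. A region of 1903 bp covered the canonical TSS of PSMB8 and an alternative start of PSMB9, 8934 bp from the canonical TSS of PSMB9. Only PSMB8 was K/D-only, since a WT region lay 33 bp from the canonical TSS of PSMB9. OASL, an interferon-induced protein, had a region of 951 bp over a start.

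In the cell cycle and replication list, 5 of 38 genes were K/D-only and 4 WT-only. MCM6, a subunit of the replicative helicase, had a region of 2488 bp with its edge 363 bp downstream of the TSS and a gap of 28461 bp to WT. E2F1, which drives entry into S phase, had a region of 1619 bp with a gap of 8744 bp, and PLK1, a mitotic kinase, one of 1593 bp with a gap of 2352 bp. The promoters of MCM6 and E2F1 printed above each held 2 CCAAT matches and 1 GC box. FBXO5, an inhibitor of the anaphase-promoting complex, had 4 CCAAT matches in 150 bases, 2 of which overlapped. Its region of 3527 bp had its edge 999 bp from the TSS. Of 32 apoptosis genes, 2 were K/D-only and 1 WT-only. The K/D-only ones were BAK1 and HRK, which both promote release of cytochrome c, with regions of 1309 and 788 bp.

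Genes in constant use in growing cells were represented as well. Of 88 cytosolic ribosomal protein genes, 8 were K/D-only, 9.09%, and 7 WT-only. RPL36A, with 3655 bp, and RPL13A, with 2005 bp, had gaps of 12529 and 6579 bp to WT. Of 156 mitochondrial ribosomal and oxidative phosphorylation genes, 28 were K/D-only, 17.9%, and 25 WT-only, 16.0%, with MRPS16, MRPL2 and MRPS23 first in order. Among 85 ubiquitin ligase and proteasome genes both counts were 12. UBE2Q1 and UBE2J2, ubiquitin-conjugating enzymes, and PSMA2, a subunit of the proteasome core, had gaps of 48060, 8918 and 41479 bp. Solute carriers were balanced as well, with 42 K/D-only and 43 WT-only of 367. SLC38A1, an amino acid transporter, SLC25A22, a mitochondrial glutamate carrier, and SLC4A2, an anion exchanger, each had a WT DAXX peak in the region. The SLC25A22 and SLC4A2 regions also held a K/D DAXX peak. SLC38A1 was not a K/D-only gene, since a WT region lay 693 bp from its canonical TSS.

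Of 94 potassium channel genes, 45 had a region in neither line, beside 6433 of all 19785 protein-coding genes. In this list 17 genes were K/D-only, 18.1%, and 9 were WT-only, 9.57%, and of the 49 with a region in either line 34.7% were K/D-only. KCNN4, the calcium-activated channel of intermediate conductance, had a region of 2172 bp over the TSS with 2 WT DAXX peaks and 1 K/D DAXX peak. KCNMB2, a subunit of large-conductance channels, and KCNH5, a voltage-gated channel, had regions of 1200 and 1151 bp with gaps of 81169 and 157316 bp. The families that follow had few regions in either line. Of 390 olfactory receptor genes, 8 were K/D-only and 3 WT-only, and the first regions of the list, at OR8U1, OR8J3 and OR8D1, stood at places 20003, 36157 and 40937 of the K/D list. Clustered protocadherin genes were K/D-only in 4 of 53 cases and WT-only in 1, keratin genes in 2 of 55 and 0, and cancer-testis antigen genes in 0 of 65 in both directions, with an exact 95% interval up to 5.52%. PCDHA13, PCDHA8, KRT10 and KRT6A were among these K/D-only genes.

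The HOX clusters had 2 K/D-only and 7 WT-only genes of 39, with HOXB4 and HOXC10 as the K/D-only ones. STEAP2, a metalloreductase abundant in prostate, had a region of 3782 bp over its start with a WT DAXX peak and a gap of 7754 bp. Of 30 epithelial and mesenchymal genes, 3 were K/D-only and 5 WT-only. SNAI1, a repressor of CDH1, had a region of 917 bp that held a K/D DAXX peak. FN1, which encodes fibronectin, had a region of 3504 bp upstream of a WT region of 2193 bp, which shared bases with another K/D region. None of 27 imprinted genes was K/D-only and 3 were WT-only. Replication-dependent histone genes had 7 and 9 of 64, with H3C6 and H2BC13 among the former, and ZNF genes of chromosome 19 had 29 and 42 of 246, with ZNF433, ZNF625 and ZNF805 first.

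**Figure D4:**
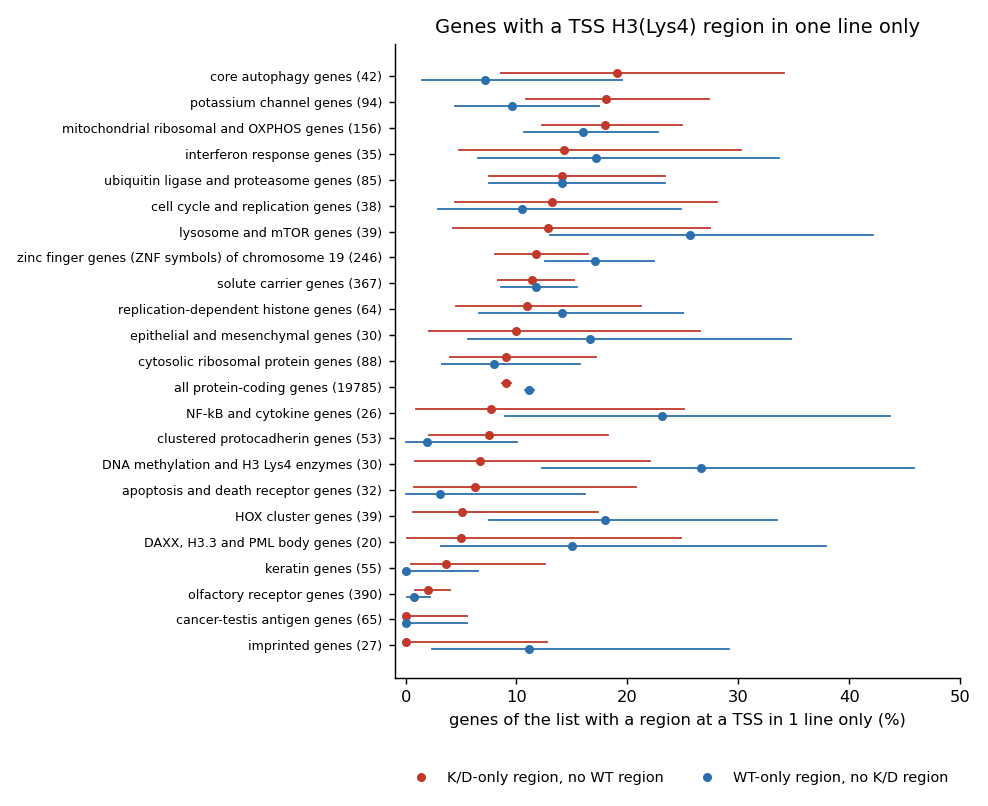
Share of the genes of each of the lists described (horizontal axis, percent, list size in parentheses) with a K/D-only TSS region and no WT region at a TSS (red) or the reverse (blue), with exact 95% binomial intervals that count genes and do not stand for replicate error. Core autophagy genes have the highest red value, 19.05%, and its interval (8.60 to 34.1) includes the 9.06% of all protein-coding genes. Most intervals of single lists overlap those of all genes. The red intervals of mitochondrial ribosomal and oxidative phosphorylation genes (12.3 to 24.9) and of potassium channel genes (10.9 to 27.4) lie above 9.06%. Those of olfactory receptor and cancer-testis antigen genes lie below it.

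DAXX and DNMT1 peaks were not used by the rule and were compared next. The question was whether regions that appeared in K/D cells lay at sites with DAXX in WT cells. A WT DAXX peak lay in 490 of the 3558 K/D-only TSS regions, 13.8% (12.7 to 14.9). In the 9978 shared K/D regions the share was 17.4% (16.7 to 18.2), and in the 4388 WT-only TSS regions it was 21.1% (19.9 to 22.3). The odds ratio was 0.757 (95% interval 0.677 to 0.844, two-sided Fisher's exact test, Benjamini-Hochberg adjusted p = 1.283e-06 over 8 tests) against the shared regions and 0.599 (0.530 to 0.676, Fisher's exact test, adjusted p = 1.666e-16) against the WT-only ones. The test compares regions of these single libraries and not the 2 lines. The WT DAXX and H3(Lys4) lists were called against the same WT input, so they are not fully independent.

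Width moved with the first of these comparisons. Wider regions held more DAXX peaks, from 8.14% of K/D-only TSS regions in the lowest width quartile to 29.2% in the highest, and the shared regions ran from 10.1% to 29.2%. Combined over width quartiles by the Mantel-Haenszel method, the odds ratio against shared regions was 0.992 (0.886 to 1.11), and a difference was not detectable at equal width. Against WT-only TSS regions it was 0.711 (0.628 to 0.805) and kept its direction. The share of tags in WT DAXX peaks was 15.77%, and in K/D DAXX peaks it was 6.83%, and the part of this difference in the counts was not tested.

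**Figure D5:**
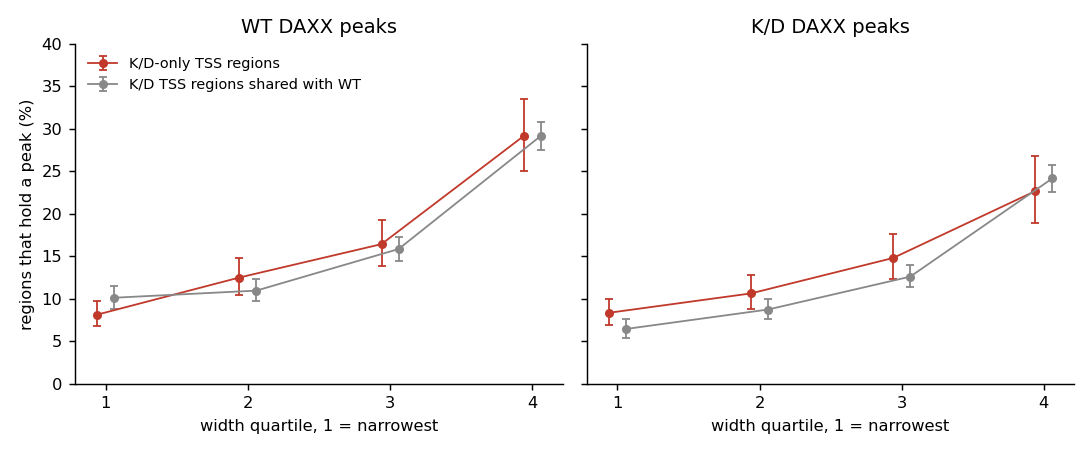
Share of K/D-only TSS regions (red) and of K/D TSS regions shared with WT (grey) that hold a WT DAXX peak (left) or a K/D DAXX peak (right), in percent, by quartile of width over all K/D regions at TSS, with exact 95% binomial intervals that cover counting error only. In the highest quartile the WT DAXX shares are 29.2% in both sets, and in the 3 lower quartiles the K/D DAXX share is higher in K/D-only TSS regions, as in the lowest with 8.36% against 6.45%.

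K/D DAXX peaks lay in 433 K/D-only TSS regions, 12.2% (11.1 to 13.3), in 13.8% of shared K/D regions and in 12.2% of WT-only TSS regions. The K/D DAXX and K/D H3(Lys4) lists were called against the same K/D input, so they are not fully independent either. The odds ratio against shared regions was 0.863 (0.767 to 0.970, Fisher's exact test, adjusted p = 0.03365) and turned to 1.15 (1.02 to 1.30) over width quartiles. It also turned when peak centres had to lie within 500 bp of region centres, and the cause was not tested. Against WT-only TSS regions it was 0.996 (0.868 to 1.14, Fisher's exact test, adjusted p = 0.9725) and became 1.17 (1.02 to 1.35) over width quartiles. Taking both lists, 257 K/D-only TSS regions held a DAXX peak in each line, 233 in WT only, 176 in K/D only and 2892 in neither.

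Regions with a K/D DAXX peak and no WT one were led by MAP4K4, a kinase of the JNK pathway, YWHAG, a 14-3-3 protein, RSAD1, SH3PXD2B, an adaptor of invadopodia, and NGLY1, which removes N-glycans from misfolded proteins. The MAP4K4 region was 4392 bp wide and lay 1321 bp from its canonical TSS. The SH3PXD2B region covered its start, and the peak printed above had 2 GC boxes. Regions with a WT DAXX peak and no K/D one were led by RTKN2, YAP1, MAP3K14, DISP1 and RNF11, a RING finger protein with 2 WT DAXX peaks in a region of 3961 bp. One of the 2 WT DAXX peaks of the MAP3K14 region had 2 AP-1 matches.

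DNMT1 peaks were too few for a comparison of any precision. WT DNMT1 peaks lay in 17 K/D-only TSS regions, 0.478% (0.279 to 0.764), in 43 shared K/D regions and in 30 WT-only TSS regions. The odds ratios were 1.11 (0.592 to 1.99, Fisher's exact test, adjusted p = 0.8786) and 0.697 (0.360 to 1.31, Fisher's exact test, adjusted p = 0.3899). K/D DNMT1 peaks lay in 2, 10 and 8 regions of the 3 sets, with odds ratios of 0.561 (0.0597 to 2.63, Fisher's exact test, adjusted p = 0.8786) and 0.308 (0.0318 to 1.54, Fisher's exact test, adjusted p = 0.3899). Regions with a WT DNMT1 peak included those of EFR3A, CYTH1, TPCN1 with IQCD, SSH1, COA1 and CADM2, a cell adhesion molecule. The COA1 and CADM2 regions lay at alternative starts, 79655 and 767117 bp from the canonical ones. TGFB3, a ligand of the TGF-beta family, had 1 of the 2 regions with a K/D DNMT1 peak.

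The sequence under the region centres was less GC-rich than that at start sites. In windows of 200 bp at the region centres, the median GC content was 48.5% in K/D-only TSS regions (quartiles 40 and 58.4), 48.5% in shared K/D regions and 51.5% in WT-only TSS regions, against 65% in windows over all protein-coding TSS. The CpG ratio had medians of 0.403, 0.417, 0.446 and 0.778 in the same order. The starts of K/D-only genes themselves were CpG-rich, with a median ratio of 0.815 in 500 bp around 1789 canonical TSS. The value was 0.814 for WT-only genes, 0.849 for genes with a region in both lines and 0.340 for genes with none.

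An AP-1 match was present in 3.57% (2.98 to 4.23) of the 200 bp windows of K/D-only TSS regions, in 2.65% (2.34 to 2.98) of those of shared K/D regions and in 3.396% (2.88 to 3.97) of those of WT-only TSS regions, beside 2.37% of all TSS windows. GC boxes were in 8.32%, 8.83%, 11.2% and 33.1% of the same sets, and ETS matches in 1.74%, 1.92%, 1.75% and 10.7%. CCAAT matches occurred in 20.2% and TATAAA in 11.6% of the K/D-only windows. Over whole regions, which differ in width, the order of the AP-1 shares turned, with 13.5% in K/D-only, 16.5% in shared K/D and 16.6% in WT-only TSS regions. These matches are descriptions of letters and not of bound sites, and no test was made. Around DAXX peaks the composition was different. WT DAXX peaks in K/D-only TSS regions had an AP-1 match in 20% (16.6 to 23.7) of 520 windows, those in shared K/D regions in 17.1% (15.5 to 18.9) and those outside K/D regions at TSS in 36.9%. The same shares for K/D DAXX peaks were 18.4%, 16.7% and 36.2%. GC boxes were found at 17.9% of the WT DAXX peaks in K/D-only TSS regions and at 4.46% of those outside K/D regions at TSS.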

How the data were processed

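ChIP-Seq had been performed on 8 samples, and 6 peak lists were used. The authors mapped reads to hg19 with Bowtie2 2.1.0 after base calling with CASAVA 1.8.2, and called peaks with HOMER 4.6 against the input of the same line. H3(Lys4) lists were called in the histone style, which joins neighbouring peaks into regions of variable width, and the DAXX and DNMT1 lists in the factor style. The deposited score of every peak is 1 and ranks nothing, and no tag counts per peak were used. Each library joined an older and a newer run per the file headers. How runs, sequencing depth or fixed calling limits move a region across the threshold was not tested.

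Positions were taken from the start and end columns that the authors deposited. TSS came from the GENCODE v44 basic set on GRCh37 (63781 protein-coding transcripts, 19785 genes), and 70 H3(Lys4) regions on other contigs were left out. Overlap meant at least 1 shared base. Intervals of shares are exact binomial ones at 95% and cover the error of counting alone. Regions were compared with the conditional odds ratio and Fisher's exact test (scipy 1.17.1), adjusted over 8 tests, with the Mantel-Haenszel ratio over width quartiles (statsmodels 0.14.6) as an alternative. Functions were checked on simulated data. Named genes were the first 12 regions in list order without a WT region at the TSS, the first 6 with one, the 5 widest, up to 3 per gene list over 23 lists, the first 5 of each DAXX class, up to 8 with DNMT1 peaks and those at the 1 kb limit. The regions and gene lists were chosen with earlier results of these data known. Some genes, 1 sequence and 1 gene list are not reported here.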

Additional observations from a re-analysis of the deposited data

How the results depend on the processing

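Of 61 values recomputed under alternative settings, 45 were rated unchanged. Odds ratios had to keep their direction and side of the threshold. Counts and the share of K/D-only TSS regions had to stay within 1.5 times. Other shares had to stay in the main interval, and median GC within the quartiles. Many of the 45 describe the same sets of regions. Of the odds ratios, 6 reversed, 3 lost the threshold and 1 newly passed it, and 6 counts or shares moved. The number of K/D-only TSS regions ran from 2404, when only regions wider than the calling minimum were kept (chosen after seeing the data), to 4403 with a TSS limit of 2 kb, and stayed at 3558 with a minimum of 500 bp, which every region passes. The number of K/D-only genes ran from 1716 to 1792. The share without a WT region at the TSS was 77.68% with a 500 bp limit, 63.63% with 2 kb and 49.04% with 5 kb. AP-1 matches were in 7.926% of 500 bp windows and 13.46% of whole regions, beside 6.374% and 16.46% for shared K/D regions and 8.159% and 16.57% for WT-only TSS regions. The named regions were 95 and 44 of them had a TSS within 1 kb of the centre.

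The odds ratios for DAXX depended on the overlap rule, and the cause was not tested. With peak centres within 500 bp of the region centre, the ratio against shared K/D regions was 1.093 for WT DAXX (Fisher's exact p = 0.128) and 1.26 for K/D DAXX (Fisher's exact p = 0.0002668), and against WT-only TSS regions it was 1.19 for K/D DAXX (Fisher's exact p = 0.01759) and 1.002 for WT DNMT1 (Fisher's exact p = 1). Combined over width quartiles by the Mantel-Haenszel method these ratios were 0.992 for WT DAXX (95% interval 0.8858 to 1.111) and 1.148 for K/D DAXX (95% interval 1.017 to 1.296) against shared regions, and 1.171 for K/D DAXX against WT-only ones (95% interval 1.018 to 1.346). With the first 50% of each DAXX list they were 0.8782 for WT DAXX (Fisher's exact p = 0.1083) and 0.8658 for K/D DAXX (Fisher's exact p = 0.1088) against shared regions, and 0.7778 for K/D DAXX against WT-only ones (Fisher's exact p = 0.012). K/D DAXX against WT-only TSS regions passed the threshold in opposite directions over width quartiles and with the first 50% of the list. WT DAXX against WT-only TSS regions stayed below 1 throughout, from 0.5988 to 0.7565. No paired analysis was possible because each group had 1 library.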

Other observations

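K/D-only TSS regions were spread over the chromosomes. Their share of K/D regions at TSS ran from 21.06% on chromosome 4 to 30.99% on chromosome 21, where it rests on 44 of 142 regions, and was 28.18% (24.16 to 32.47) on chromosome X. Of all K/D-only TSS regions, 344, or 9.67% (8.72 to 10.7), lay at TSS of 2 or more genes, against 13.2% (12.5 to 13.9) of shared K/D regions. These are counts from the lists that chose the regions, and no test was made.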
